A study of Homo sapiens with 4 samples.

Results

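The genes described here are 9 core genes of the Hedgehog pathway, HHIP, PTCH1, SMO, GAS1, BOC, SUFU, GLI1, GLI2 and GLI3. They were picked by symbol out of a count table of 58735 human genes. HHIP entered the set because it differed between the groups in this same comparison, so the differences of the 9 genes are given as a description without a test. The cells were U2OS, an established human osteosarcoma line, and RNA-seq was done on 2 libraries labelled shControl and 2 labelled shGREM1, the latter from a line with a knockdown of GREM1. GREM1 encodes gremlin 1, a secreted protein that binds bone morphogenetic proteins. The labels name no other treatment and do not state the hairpin, the number of clones or how far the 2 libraries of a group were grown apart. The spread between libraries may therefore be technical.

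Hedgehog ligands are secreted, lipid-bearing proteins that bind the receptor Patched, encoded by PTCH1. Free of ligand, Patched holds the membrane protein Smoothened (SMO) inactive. Ligand binding releases SMO, which moves into the primary cilium and frees the GLI transcription factors from SUFU, the protein that retains them. GAS1, BOC and CDON are co-receptors that hold ligand at the cell surface. HHIP binds the ligands and keeps them from Patched, and GLI1, PTCH1 and HHIP are themselves widely used as readouts of the pathway, since GLI factors raise their transcription in many tissues. In growing bone, Indian hedgehog from cartilage acts on the osteoblast lineage.

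The libraries held between 15492826 and 16353015 counts, and 18442 genes passed the filter on low counts. GREM1 had 2 and 0 counts in shControl and 1 in each shGREM1 library. The count of 0 allows up to 3 counts, or 0.194 CPM (counts scaled to library size), so the knockdown could not be checked and no difference below can be tied to a loss of GREM1. Of 7 osteoblast lineage markers, RUNX2, ALPL, COL1A1, COL1A2 and SPARC passed the count filter while SP7 and BGLAP did not, and COL1A2 had at most 20 counts in a library. The 7 summed to 897 and 904 TPM (a level per length) in shControl against 1311 and 1274 TPM in shGREM1. COL1A1, the collagen I chain gene, and SPARC, a matrix protein gene, made up most of that sum and rose (edgeR adjusted p = 0.0172 and 0.0155), though not without shControl-1 (0.0996 and 0.165) or with shControl-2 left out (0.166 and 0.126). ALPL, the bone alkaline phosphatase gene, had 13.5 and 8.68 CPM against 3.90 and 7.34 CPM and did not pass (edgeR adjusted p = 0.0888). It passed in edgeR with no count filter (adjusted p = 0.00113) and with the replicate block (0.00114). Under the other settings with all 4 libraries it did not, such as DESeq2 (adjusted p = 0.0671) and limma-voom (0.0712). With single libraries left out, its log2 fold change ran from -1.51 to -0.60, beside -0.98 as reported. Summed over the 3 epithelial markers, EPCAM, CDH1 and KRT5, the level was 9.29 and 10.7 TPM in shControl and 18.8 and 20.1 TPM in shGREM1. EPCAM made up most of that sum and rose from a mean of 7.91 to 16.0 TPM (edgeR adjusted p = 0.0123). CDH1 and KRT5 were higher but did not pass. The 3 neural markers summed to 8.78 and 8.44 TPM against 5.13 and 4.32 TPM. Most of that was RBFOX3, which fell from a mean of 7.96 to 4.02 TPM (edgeR adjusted p = 0.00268). GFAP was lower but did not pass. SOX10, below the count filter, had 2 counts in each shControl library against 9 and 5 in shGREM1. The 3 endothelial markers summed to 4.36 to 7.47 TPM and the 4 leukocyte markers to 0.366 to 2.09 TPM over all 4 libraries. No marker was at 0 in all libraries, and the part of these shifts in the results below was not tested. In bulk RNA, a smaller share of cells that express a gene and less of its RNA in each cell cannot be told apart.

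HHIP (ENSG00000164161) lies on chromosome 4 from 144646021 to 144745271 on the plus strand (GRCh38). HHIP-AS1 (ENSG00000248890), a long non-coding RNA gene on the minus strand, lies from 144642922 to 144661357, and its transcript HHIP-AS1-203 starts inside HHIP. In GENCODE 29 the start of the transcript HHIP-AS1-202, at 144645987, is separated from the start of HHIP-201 by 33 bases. RefSeq places the starts elsewhere, at 144646156 for HHIP and 144646019 for HHIP-AS1, so that its 300-base promoter windows of both genes share 236 bases. The stretch chr4:144645906-144646020 is printed from the RefSeq promoter table (GRCh38.p14, plus strand, 5′ to 3′), because it lies directly upstream of HHIP and holds the start of HHIP-AS1-202. Capitals mark the bases between the GENCODE starts of both, and the lower-case bases lie inside the first exon of HHIP-AS1-202.
HHIP: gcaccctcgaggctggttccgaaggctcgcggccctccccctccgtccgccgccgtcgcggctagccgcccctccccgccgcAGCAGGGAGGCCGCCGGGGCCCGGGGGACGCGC

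Promoter windows were listed for 7 of the 9 genes, 13 windows in all, each with 250 bases before and 50 after a RefSeq start. GLI1 and GLI3 were not among them. The consensus of GLI factors, GACCACCCA, was searched as these exact letters on both strands, where the other strand reads TGGGTGGTC. Of the 7 genes, only PTCH1 held it, in 1 of its 5 windows. Among all listed windows 83 of 35116, or 0.236%, held it. The PTCH1 match lies at 95509430 to 95509438 on chromosome 9, inside the annotated PTCH1 gene but in none of its exons, 172 bases before the start of a shorter one. The 250 bases before that start, chr9:95509267-95509516 (GRCh38.p14, minus strand), are shown for contrast with the HHIP region, and capitals mark the match.
PTCH1: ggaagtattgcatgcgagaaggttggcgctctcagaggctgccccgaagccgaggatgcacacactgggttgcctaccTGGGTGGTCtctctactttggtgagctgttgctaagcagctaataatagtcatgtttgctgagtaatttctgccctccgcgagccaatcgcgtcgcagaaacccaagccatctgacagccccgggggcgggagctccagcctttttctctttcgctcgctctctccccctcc

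The windows of HHIP and HHIP-AS1 did not hold these letters, which says only that they are not within those 300 bases. No binding or chromatin data were part of the series.

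HHIP was the one gene of the 9 with a large difference. It had 449 and 484 counts in the shControl libraries against 125 and 140 in the shGREM1 libraries. Scaled for library size, its expression was 29.1 and 31.4 CPM in the shControl libraries against 7.63 and 8.71 CPM in the shGREM1 libraries. Both shGREM1 libraries lay far below both shControl libraries, with means of 30.2 ± 1.61 and 8.17 ± 0.764 CPM (SD, n = 2 each). The log2 fold change was -1.89 ± 0.16 (SE), a 3.70-fold lower expression in shGREM1. Libraries of the same group differed by 0.11 on the log2 scale in shControl and 0.19 in shGREM1. Ordered by log2 fold change, HHIP had the 69th lowest value of 14206 protein-coding genes kept. It was past an adjusted p of 0.05 in the edgeR quasi-likelihood fit of all genes and was the 1 gene of the 9 that was. Among all kept genes 4.12% were lower and 3.57% higher in shGREM1 by that threshold, and nothing is read from the comparison of these shares because the choice of HHIP rested on it.

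**Figure D1:**
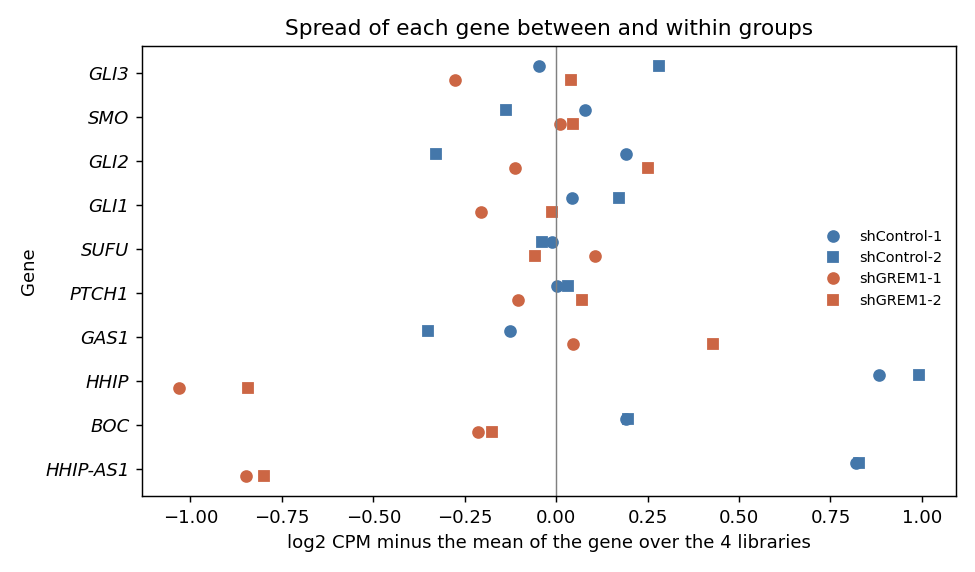
Expression of the 9 Hedgehog pathway genes and of HHIP-AS1 in each library, as log2 CPM minus the gene's mean over the 4 libraries (x axis), with shControl in blue, shGREM1 in red, and circles and squares for replicates 1 and 2. HHIP and HHIP-AS1 show the widest gaps between groups, and GLI2 and GLI3 spread as much within a group as between groups.

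The receptor and transducer genes had log2 fold changes near 0. PTCH1, which encodes the ligand receptor, had 56.0 and 57.1 CPM in the shControl libraries against 52.0 and 58.7 CPM in the shGREM1 libraries. The shGREM1 libraries lay on both sides of the shControl libraries, and the log2 fold change was -0.03 ± 0.12 (SE), with a 95% interval from -0.28 to 0.22. SMO, the signal transducer that Patched inhibits, had 54.5 and 47.0 CPM in the shControl libraries against 52.0 and 53.3 CPM in the shGREM1 libraries. The groups overlapped, and its log2 fold change was 0.05 ± 0.12 (SE). Overlapping genes on the other strand had few reads, 18 to 21 counts in a library for AL161729.1 at PTCH1 and 6 to 17 for AC011005.4 at SMO.

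The co-receptor genes differed from each other in direction. BOC, an immunoglobulin-type co-receptor, had 23.8 CPM in both shControl libraries against 17.9 and 18.4 CPM in shGREM1. Both shGREM1 libraries were lower, and the libraries of each group nearly coincided (log2 fold change -0.39 ± 0.15, SE). GAS1, a lipid-anchored co-receptor, had 8.81 and 7.51 CPM in the shControl libraries against 9.94 and 13.0 CPM in the shGREM1 libraries. Both shGREM1 libraries were higher, but they differed from each other by 0.38 on the log2 scale, beside a log2 fold change of 0.49 ± 0.21 (SE). Neither gene passed the threshold over all genes. Without shGREM1-2 the log2 fold change of GAS1 was 0.29, and without shGREM1-1 or a shControl library it ranged up to 0.67. BOC shares 513 of its 10330 exonic bases with CFAP44, a cilium gene on the opposite strand that had 11.3 and 11.0 CPM in the shControl libraries against 14.6 and 14.7 CPM in the shGREM1 libraries, so reads of the shared end could have gone to either gene.

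SUFU, the inhibitor that binds GLI proteins, had 35.2 and 34.5 CPM in the shControl libraries against 38.2 and 34.0 CPM in the shGREM1 libraries. The groups overlapped and the log2 fold change was 0.05 ± 0.13 (SE).

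The GLI genes encode the transcription factors at the end of the pathway: GLI1 is an activator, GLI2 mainly an activator and GLI3 mainly a repressor. GLI1 had 24.0 and 26.3 CPM in the shControl libraries against 20.2 and 23.1 CPM in the shGREM1 libraries. The shGREM1 values were lower without overlap, but the gap between the nearest libraries was small, and the log2 fold change of -0.22 ± 0.15 (SE) had a 95% interval from -0.53 to 0.10. ARHGAP9, which shares 8 exonic bases with GLI1, had 8 to 29 counts in a library. GLI2 had 91.2 and 63.5 CPM in the shControl libraries against 73.7 and 95.0 CPM in the shGREM1 libraries. The shControl libraries differed by 0.52 on the log2 scale, more than the groups did (0.13 ± 0.19, SE). GLI3 had 186 and 234 CPM in the shControl libraries against 159 and 198 CPM in the shGREM1 libraries. Its groups overlapped as well, with a log2 fold change of -0.23 ± 0.14 (SE).

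Counted together, 5 of the 9 genes lay below 0 and 4 above 0 on the log2 scale, with a median of -0.03 beside a median of 0.00491 over all genes kept. In CPM the groups did not overlap for 4 of the 9, HHIP, BOC and GLI1 with lower and GAS1 with higher values in shGREM1. That compares with 53.6% of all genes kept. For GLI1 it depended on the scale, since in TPM its groups overlapped, at 20.1 and 22.5 in shControl against 17.0 and 20.6 in shGREM1.

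**Figure D2:**
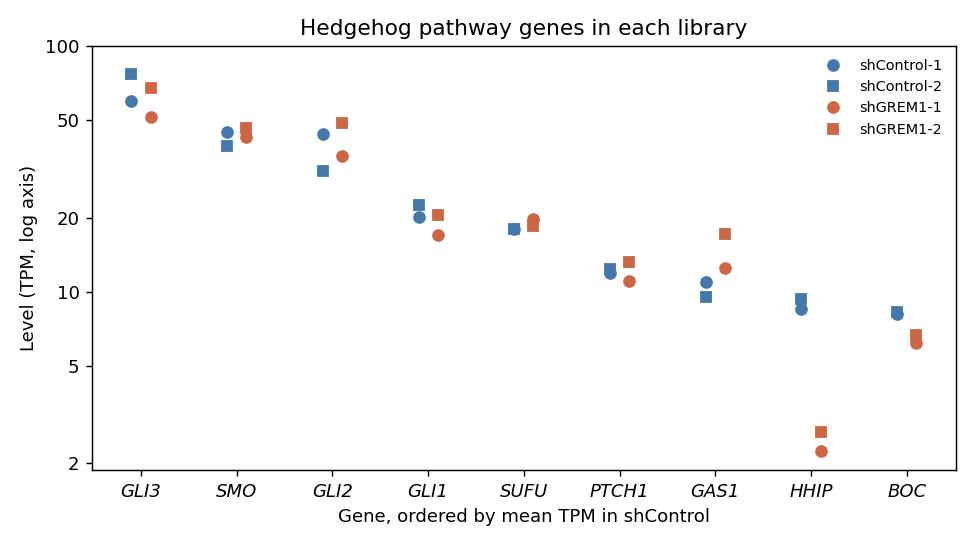
Level of each Hedgehog pathway gene per length (TPM, log axis) in each library, with genes ordered by their mean in shControl, shControl in blue and shGREM1 in red. GLI3 was the most abundant gene and BOC the least in shControl, while HHIP was the lowest in shGREM1 at 2.24 and 2.69 TPM.

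Levels of different genes were compared per length, in TPM. In shControl the order from highest to lowest was GLI3, SMO, GLI2, GLI1, SUFU, PTCH1, GAS1, HHIP and BOC. GLI3 had a mean of 68.1 TPM, SMO 41.8 TPM, PTCH1 12.1 TPM, HHIP 8.90 TPM and BOC 8.19 TPM. Ranges of neighbours in that order overlapped only for SMO and GLI2. In shGREM1 HHIP moved to the last place, at 2.24 and 2.69 TPM, below BOC at 6.15 and 6.66 TPM. SUFU, GLI1, GAS1 and PTCH1 formed a run of overlapping neighbours there, and SMO and GLI2 overlapped as before. GLI1, GLI2 and GLI3 were all present in every library. Of the summed TPM of the GLI genes, GLI1 made up 15.1% to 17.3% and GLI3 48.3% to 58.9%. The highest GLI3 share and the lowest GLI2 share, 23.9%, came from the same library, shControl-2.

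Ratios of levels within a library do not depend on the scaling between libraries. HHIP stood at 0.714 and 0.754 of the PTCH1 level in shControl and at 0.202 and 0.204 in shGREM1. Against GLI1 the ratio was 0.421 and 0.415 in shControl and 0.132 and 0.131 in shGREM1. HHIP was lower relative to both other readout genes in each shGREM1 library. PTCH1 relative to SMO was 0.267 and 0.316 in shControl and 0.260 and 0.286 in shGREM1, where the groups overlapped.

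HHIP-AS1 was lower together with HHIP. It had 187 and 188 counts in the shControl libraries against 61 and 62 in the shGREM1 libraries, or 12.1 and 12.2 CPM against 3.72 and 3.86 CPM. The libraries of each group almost coincided, and HHIP-AS1 fell, with a log2 fold change of -1.68 and an SE of 0.22 (edgeR quasi-likelihood test, Benjamini-Hochberg adjusted p = 0.000367). The HHIP-AS1 to HHIP ratio of levels per length was 3.23 and 3.01 in shControl and 3.78 and 3.43 in shGREM1. The gene bodies overlap over 15337 bases, but annotated exons share 178 bases, which is 11.4% of the exonic length of HHIP-AS1 and 1.47% of that of HHIP. Whether counting used strand is not given in the sources used here. Reads from the shared exons can therefore not be assigned to one of the genes. With the counts of both genes added together, the log2 fold change was -1.83.

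Other genes near HHIP differed less. Of 15 other genes within 500 kb of HHIP, 5 passed the count filter. Besides HHIP-AS1, ABCE1, which encodes a ribosome-recycling factor and lies 352.7 kb away, fell from 123 ± 3.54 to 89.7 ± 5.27 CPM (SD, n = 2 each). That was a log2 fold change of -0.46 with an SE of 0.11 (edgeR adjusted p = 0.0177). The edgeR adjusted p of ABCE1 was 0.0546 without shControl-1 and 0.0871 when shControl-2 was left out instead. It overlaps OTUD4, a deubiquitinase gene on the other strand, which had 101 and 114 CPM in the shControl libraries against 83.6 and 100.1 CPM in the shGREM1 libraries, with an edgeR adjusted p of 0.287. ANAPC10, the nearest of these genes at 86.6 kb and a subunit gene of the anaphase-promoting complex, had 49 to 58 counts in every library and stood at -0.05 ± 0.31 (SE) on the log2 scale, with an edgeR adjusted p of 0.956. The long non-coding AC139713.2 had 9 and 33 counts in the shControl libraries against 34 and 32 in the shGREM1 libraries and did not pass (edgeR adjusted p = 0.555).

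**Figure D3:**
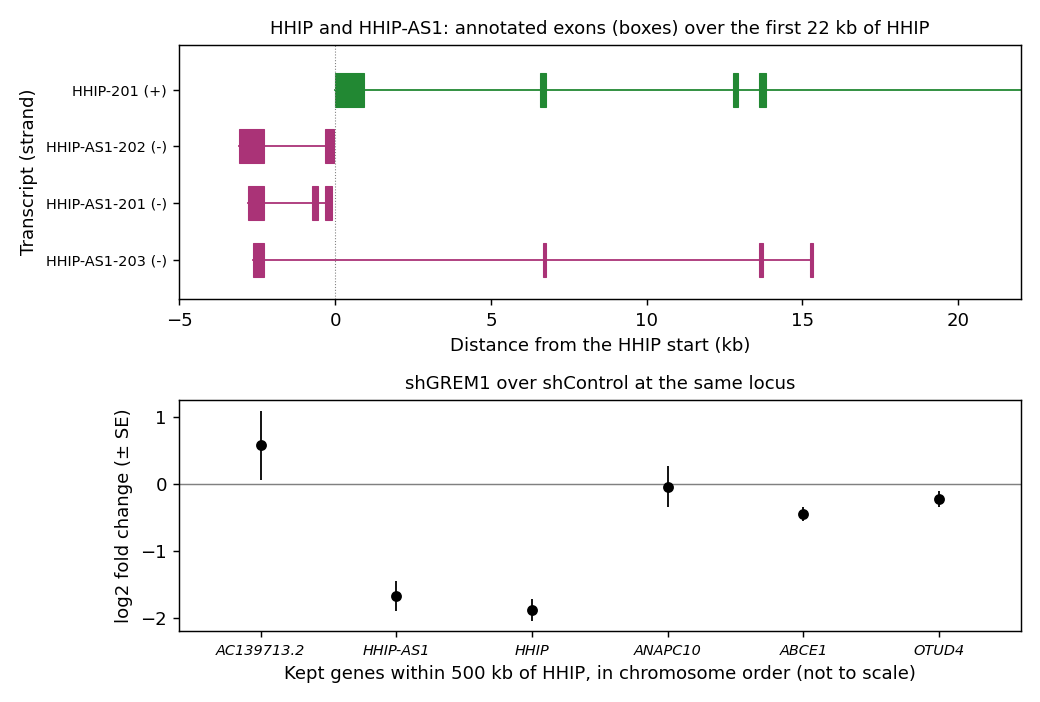
Upper panel, annotated exons (boxes) of HHIP-201 and the 3 HHIP-AS1 transcripts against the distance from the HHIP start in kb, with strand in parentheses. Lower panel, log2 fold change of shGREM1 over shControl (points, with bars for the SE) of HHIP and the kept genes within 500 kb, where HHIP and HHIP-AS1 lie near -1.89 and -1.68 and the other 4 genes between -0.46 and 0.58.

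The genes whose profile over the 4 libraries was closest to that of HHIP were SULT1C2, TMEM158, ABCG2, MMP13 and HAVCR2. They were ranked by the root-mean-square difference in centred log2 CPM over the protein-coding genes at a mean of 1 CPM or more, and their differences ran from 0.0995 to 0.125. TMEM158, a membrane protein gene, was the most abundant of them, with mean expression of 213 ± 3.05 CPM for shControl against 65.4 ± 12.0 CPM for shGREM1 (SD, n = 2 each). SULT1C2, a sulfotransferase gene, had 52 and 57 counts in the shControl libraries against 15 and 18 in the shGREM1 libraries. ABCG2, a drug efflux pump gene, had 7 counts in each shGREM1 library, and MMP13, a collagenase gene of cartilage and bone, had 9 and 11. HAVCR2, an immune checkpoint receptor gene, had 54 and 48 counts in shControl and 12 in each shGREM1 library. HHIP-AS1 was the 10th closest gene among all genes kept, at 0.128. With 2 libraries a group, this ranking collects genes that were about as far lower as HHIP in both shGREM1 libraries on that scale. Its log2 CPM included a prior count of 2, which shrinks the differences of genes with few counts. The fitted log2 fold changes were further apart, from -2.31 for ABCG2 to -1.70 for TMEM158, beside -1.89 for HHIP.

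Of 58 other pathway genes outside the 9, 53 passed the count filter, of which 2 rose, 4 fell and 47 did not pass. Their median log2 fold change was -0.04. The 6 genes that passed compare with 7.69% of all genes in either direction. These lists were chosen with earlier results of these data known, so nothing is read from that comparison. SHH, IHH, EVC2, FOXL1 and FOXC2 did not pass the count filter.

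Hedgehog ligands themselves were near the limit of detection. SHH had 0 counts in both shControl libraries and 1 in each shGREM1 library, IHH had 3 and 10 against 2 and 4, and DHH had 12 and 8 against 15 and 19. A count of 0 allows up to 3 counts in a library, and no difference in SHH or IHH was detectable at this depth. Among genes that make and release ligands, HHAT, the enzyme that attaches palmitate to Hedgehog proteins, rose from 21.2 ± 0.0939 to 30.1 ± 2.11 CPM (SD, n = 2 each), which is 0.50 ± 0.14 (SE) as a log2 fold change with an edgeR adjusted p of 0.0401. HHAT did not pass with DESeq2 (adjusted p = 0.0803), with limma-voom (0.0513) or without shControl-1, shControl-2 or shGREM1-2 (edgeR adjusted p from 0.104 to 0.189). The ligand exporter DISP1 had 62 to 79 counts in every library, and the secreted carrier gene SCUBE3 had 142 and 120 against 144 and 97. NOTUM, better known for removing lipid from Wnt proteins, was the most abundant of this list at a mean of 62.6 TPM, with a log2 fold change of -0.24 that missed the threshold (edgeR adjusted p = 0.251).

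Other receptor genes include co-receptors and modulators of SMO. MGRN1, a ubiquitin ligase gene, had 94.0 and 90.4 CPM in the shControl libraries against 87.1 and 95.9 CPM in the shGREM1 libraries. CDON, the co-receptor closest in kind to BOC, had 15.3 and 16.5 CPM in the shControl libraries against 21.2 and 24.2 CPM in the shGREM1 libraries. The CDON groups did not overlap, the log2 fold change was 0.52 ± 0.16 (SE), and it did not pass (edgeR adjusted p = 0.0577). GPC3, a cell-surface proteoglycan gene that limits Hedgehog signalling in mouse, had a log2 fold change of 0.01 ± 0.28 (SE).

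The relay between SMO and the GLI factors showed small values throughout. Of 25 kept genes, 0 passed after adjustment by edgeR, DESeq2 or limma-voom, and 3 had an unadjusted p under 0.05 in edgeR. All 25 log2 fold changes lay between -0.28 and 0.40. Members include the kinases that prime GLI proteins for cutting or decay and the ubiquitin ligase subunits that carry it out. The most abundant, by TPM, were PRKAR1A, the regulatory subunit of protein kinase A (log2 fold change -0.15), GRK2, a kinase that phosphorylates SMO (-0.04), and CSNK1D, a casein kinase (-0.24). Among all kept genes, 7.69% passed by edgeR in either direction and 23.2% had an unadjusted p under 0.05 in edgeR. Nothing is read from a count of 0 in so short a list.

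Genes described as Hedgehog or GLI targets, in several tissues and in part only in mouse, held 4 of the 6 other pathway genes that passed. Of 14 kept, 4 fell, 0 rose and 10 did not pass, and 8 had an unadjusted p under 0.05, 6 of them lower and 2 higher in shGREM1. Among all kept genes 4.12% fell and 23.2% had an unadjusted p under 0.05 in either direction. Because the list was chosen with earlier results of these data known, nothing is read from its counts beside these shares. The list had a median log2 fold change of -0.18. FOXF2, a forkhead factor gene of mesenchyme, fell from 74.6 and 78.6 CPM in shControl to 31.3 and 31.8 CPM in shGREM1. The log2 fold change was -1.28 with an SE of 0.12 (edgeR adjusted p = 1.34e-05), and both shGREM1 libraries lay far below shControl. CCND1, the cyclin D1 gene, fell from 646 and 617 CPM to 290 and 313 CPM (log2 fold change -1.07 ± 0.11, SE; edgeR adjusted p = 3.46e-05). CCND2, the cyclin D2 gene, fell from 439 ± 58.0 to 308 ± 26.9 CPM (SD, n = 2 each). The log2 fold change was -0.51 with an SE of 0.12 (edgeR adjusted p = 0.0172), and the edgeR adjusted p was 0.199 when shControl-2 was left out.

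JAG2, a Notch ligand gene, had 24.0 and 19.9 CPM in the shControl libraries against 14.9 and 14.8 CPM in the shGREM1 libraries. It fell, at -0.56 with an SE of 0.16 on the log2 scale (edgeR adjusted p = 0.0455). It lost the threshold with DESeq2 (adjusted p = 0.0909), limma-voom (0.0617), upper-quartile scaling (0.0573), total counts (0.0538) and no robust estimation (0.0578). The edgeR adjusted p of JAG2 was 0.376 without shControl-1 and 0.0523 with shControl-2 left out. The most abundant targets that did not pass were IGFBP6, an IGF-binding protein gene (log2 fold change 0.35), FOXM1, a factor of dividing cells (0.25), and SFRP1, a secreted Wnt inhibitor gene (-0.31). The list was not tested as a set.

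**Figure D4:**
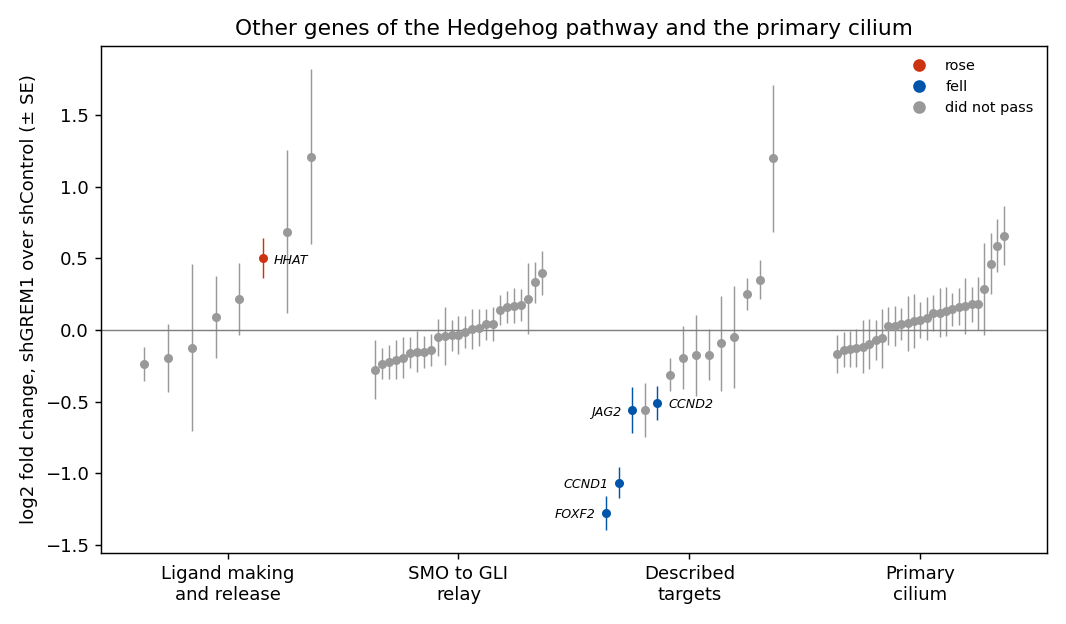
Log2 fold change of shGREM1 over shControl (y axis; points, with bars for the SE) for the kept genes of 4 lists, for ligand making and release, the relay from SMO to GLI, described targets and the primary cilium, sorted within each list and coloured by whether the gene rose, fell or did not pass. FOXF2 and CCND1 lie lowest at -1.28 and -1.07. No gene of the relay or cilium lists passed, beside 7.69% of all kept genes in either direction.

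Hedgehog signals in vertebrates pass through the primary cilium, and the genes listed here build it or carry its transport. Of 27 listed cilium genes 27 passed the count filter, and 0 of them passed the test after adjustment by edgeR, DESeq2 or limma-voom. Among all kept genes 7.69% passed by edgeR in either direction, and nothing is read from a count of 0 in so short a list. By edgeR 3 of 27 had an unadjusted p under 0.05, all of them higher in shGREM1, beside 23.2% of all kept genes in either direction. The log2 fold changes ran from -0.17 to 0.66 with a median of 0.07, and 8 of the 27 lay below 0, beside 49.4% of all kept genes. The most abundant were KIF3B, a motor subunit of transport into the cilium (0.04 ± 0.11, SE), IFT52, a subunit of the transport complex (0.07 ± 0.13), and INPP5E, a lipid phosphatase of the ciliary membrane (-0.14 ± 0.12).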

How the data were processed

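The authors deposited one table of raw counts for 4 libraries of U2OS cells. Its columns NC1 and NC2 were taken for shControl-1 and shControl-2, and SHG11 and SHG12 for shGREM1-1 and shGREM1-2, on the strength of the abbreviations only. HISAT2 2.0.5, StringTie 1.3.3b, DESeq2 and the build mm10 are named per the submitters' processing notes, but all 58735 genes matched the human GENCODE 29 annotation (GRCh38) in identifier, position and symbol. How reads were counted, and with which strand setting, is not given in the sources used here. Other values per gene, such as the gene length in bases, are as deposited per the file headers, and those of HHIP, HHIP-AS1, BOC and GLI1 equal the union of their annotated exons.

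Counts were fitted in R 4.3.3 with edgeR 4.0.16: filterByExpr (minimum count 10, minimum total 15), TMM scaling and a robust quasi-likelihood test of group. The words rose and fell are used for genes whose p, adjusted by Benjamini-Hochberg over 18442 kept genes, was under 0.05. Log2 fold changes are shGREM1 over shControl, SEs come from the F statistic, CPM use TMM-scaled library sizes, and TPM use all genes. The scripts were tested on simulated data. Alternatives were other scalings and filters, DESeq2 1.42.0, voom in limma 3.58.1, no robust estimation, a replicate block, leaving out each library and, after seeing the data, adding HHIP and HHIP-AS1 counts together. The biological coefficient of variation was 11.4%.

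The 9 genes and all lists were chosen with earlier results of these data known. Named genes are GREM1, the 9, members of the other lists that passed (up to 8 a list) and the 3 most abundant per list that did not, kept genes overlapping a member or within 500 kb of HHIP, and the 5 genes nearest to HHIP in profile. SHH, IHH, DHH, EVC2, FOXL1, FOXC2 and the cell type markers were added because of their role or count. Some genes that the list counts include are not reported here. Overlapping genes that are not named had at most 13 counts in a library. Plots used matplotlib 3.10.9 (Python 3.11.15).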

Additional observations from a re-analysis of the deposited data

How the results depend on the processing

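The log2 fold change of HHIP ran from -1.98 to -1.79 over 14 alternatives, a description of the libraries on which it was chosen. Of the 9 Hedgehog pathway genes, 1 was lower by the threshold under every alternative except without shGREM1-2, where GLI3 (-0.40) made it 2; leaving out a library thus gave 1 to 2. With 2 libraries against 1, the spread comes from the group of 2 and is taken to hold for the single library. PTCH1, SMO, SUFU and GLI2 changed sign when single libraries were left out, within -0.12 to 0.05, -0.06 to 0.16, -0.04 to 0.13 and -0.12 to 0.40. The replicate numbers gave no sign of pairing (correlation of deviations across genes -0.00703), and the replicate block raised the counts over all genes to 1101 higher and 1273 lower, with 5 higher other pathway genes and 2 higher cilium genes. Without a count filter 912 genes were higher and 1142 lower, with 4 other pathway genes and 2 cilium genes higher. Under upper-quartile scaling 793 were higher and 631 lower, against 659 and 759 as reported, and 1 cilium gene was higher. Total counts gave 709 and 663. DESeq2 and limma-voom each called 1 other pathway gene higher. Leaving out a library gave 266 to 998 higher and 382 to 1112 lower genes, 0 to 4 higher and 2 to 7 lower other pathway genes, 0 to 2 higher cilium genes and 1 to 2 lower genes near HHIP. With HHIP-AS1 counted into HHIP, 1 gene near HHIP was lower. Without division by length, 2 of the 9 genes kept their place in the order of levels. The cause of these shifts was not tested. Genes with under 20 counts in a library, such as DHH, could show only large differences at this depth.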
